A study of Mus musculus with 16 samples.

Results

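Map2k6, Mtss1, Rad51b, Slc16a1, Atxn1 and Tent5c were examined, which are 6 of 51912 gene identifiers in the deposited count table and 6 of the 14920 genes abundant enough to be tested. They were listed because the difference between a low isoleucine diet and a control diet in mouse liver changed most between refed and fasted animals. They were thus chosen by the diet differences themselves, which are given here as descriptions with no test. Each gene had its groups of libraries apart on the 2 diets in 1 feeding state only, in fasted livers for Map2k6, Mtss1, Rad51b and Slc16a1 and in refed livers for Atxn1 and Tent5c.

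RNA of 16 livers of male mice was sequenced after selection of polyadenylated transcripts, with 4 libraries in each of 4 groups. The groups were low isoleucine refed, control refed, low isoleucine fasted and control fasted. All mice were 13 weeks old and had been on their diet for 3 weeks since the age of 10 weeks. All were fasted overnight for 16 h, and were killed after this fast or after refeeding that followed it. The labels used here do not give the strain, the amount of isoleucine or the length of refeeding. The labels mark the 4 libraries of a group as RL, R, L and N, called libraries 1 to 4 here, and give each group a number of its own. A cage or order that this number might stand for cannot be told apart from diet and feeding state, and the p-values measure the spread between these libraries.

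Isoleucine is an essential branched-chain amino acid. During a fast the liver oxidises fatty acids under the control of the nuclear receptor PPAR-alpha, makes ketone bodies and glucose, and exports or imports monocarboxylates such as ketone bodies and lactate through transporters of the SLC16 family. Refeeding turns these programs down and turns on protein and lipid synthesis. The 6 genes act in separate processes. MAP2K6 is a kinase that activates p38 MAP kinases, MTSS1 bends membranes and binds actin, RAD51B belongs to a protein complex of homologous recombination, SLC16A1 is the monocarboxylate transporter MCT1, ATXN1 is a transcriptional corepressor that binds Capicua, and TENT5C is a cytoplasmic poly(A) polymerase that is abundant in plasma cells.

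Total counts per library lay between 24368656 and 34002955. Hepatocyte markers dominated every library, with a summed level of 92500 to 119000 CPM (counts scaled to library size by the TMM method) in low isoleucine refed livers, 94600 to 98400 in control refed livers, 111000 to 131000 in low isoleucine fasted livers and 75800 to 112000 in control fasted livers. Control refed library 4 stood apart: it had the highest summed level of the 16 libraries in 6 of 12 cell type marker lists, those of Kupffer cells and macrophages, endothelial cells, stellate cells and fibroblasts, B and plasma cells, T and NK cells and neutrophils. The 12 Kupffer cell and macrophage markers summed to 227 to 333 CPM in low isoleucine fasted livers and 366 to 475 CPM in control fasted livers, and in whole liver fewer cells of a type cannot be told apart from less RNA per cell. The 8 T and NK cell markers summed to 2.47 to 3.97 CPM in low isoleucine fasted livers and 4.11 to 5.77 CPM in control fasted livers. The 7 proliferating cell markers summed to 1.70 to 2.54 CPM in low isoleucine refed livers and 2.99 to 5.44 CPM in control refed livers. Their fasted sums did not overlap either, although 4 of the 7 markers had a higher mean in low isoleucine fasted livers. The part of these markers in the results below was not tested.

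Map2k6 (ENSMUSG00000020623, chromosome 11, 110399122 to 110525522, plus strand; positions here and below are those of GENCODE M21, build GRCm38) was scarce. It had 4.14, 3.32, 5.42 and 5.28 CPM in low isoleucine refed livers, against 3.58, 2.89, 3.59 and 2.26 CPM in control refed livers. Low isoleucine fasted livers had 1.65, 1.69, 1.35 and 2.17 CPM, against 3.94, 6.72, 3.28 and 3.11 CPM in control fasted livers. All 4 low isoleucine fasted libraries lay below every other library, while the other 3 groups overlapped. Means were 4.54 ± 0.995 and 3.08 ± 0.639 CPM in low isoleucine and control refed livers and 1.72 ± 0.337 and 4.26 ± 1.68 CPM in low isoleucine and control fasted livers (SD, n = 4 each). Library values came from 45 to 197 counts, which limits their precision. The fitted log2 fold of low isoleucine over control was -1.31 in fasted livers (SE 0.261, 95% interval -1.86 to -0.76) and 0.57 in refed livers (SE 0.252, 95% interval 0.03 to 1.10). The 2 diet differences of Map2k6 had opposite signs, as did those of Mtss1, Slc16a1, Atxn1 and Tent5c. Only for Map2k6 did the 2 intervals lie on opposite sides of no difference. The fasted value owed part of its size to control fasted library 2, and was -1.002 without it.

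Mtss1 (ENSMUSG00000022353, chromosome 15, 58941234 to 59082005, minus strand) was the most abundant of the 6 genes in CPM. It had 115, 111, 120 and 124 CPM in low isoleucine refed livers, against 120, 115, 123 and 105 CPM in control refed livers. The refed groups overlapped and their means differed by less than the SD of either, 118 ± 5.69 and 116 ± 7.63 CPM. In fasted livers it had 75.2, 69.4, 81.1 and 86.6 CPM on low isoleucine, against 103, 129, 139 and 144 CPM on control diet. Every low isoleucine fasted library lay below every library of the other 3 groups, with means of 78.1 ± 7.45 and 129 ± 18.2 CPM in low isoleucine and control fasted livers (SD, n = 4 each). The log2 fold of diet was -0.72 in fasted livers (SE 0.110, 95% interval -0.95 to -0.49) and 0.02 in refed livers (SE 0.109, 95% interval -0.21 to 0.25).

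Rad51b (ENSMUSG00000059060, chromosome 12, 79297282 to 79814690, plus strand) had the largest diet difference of the 6 genes. It had 7.86, 14.7, 11.8 and 9.17 CPM in low isoleucine fasted livers, against 3.38, 1.54, 3.18 and 2.18 CPM in control fasted livers. Refed livers had 2.67, 4.93, 2.42 and 2.84 CPM on low isoleucine, against 4.91, 2.69, 2.24 and 2.58 CPM on control diet. The low isoleucine fasted libraries were above all 12 others, which overlapped each other. Group means were 3.22 ± 1.15 and 3.10 ± 1.22 CPM in low isoleucine and control refed livers, and 10.9 ± 3.01 and 2.57 ± 0.864 CPM in low isoleucine and control fasted livers (SD, n = 4 each). The log2 fold of diet was 2.08 in fasted livers (SE 0.311, 95% interval 1.43 to 2.74), a 4.24-fold higher level, and 0.06 in refed livers (SE 0.308, 95% interval -0.59 to 0.71). The refed interval is wide, and its centre moved to -0.22 without low isoleucine refed library 2 and to 0.36 without control refed library 1. Markers of proliferating cells, which carry out homologous recombination, summed to 2.02 to 3.06 CPM in low isoleucine fasted livers and 3.13 to 5.19 CPM in control fasted livers. Single markers differed in direction: 4 of the 7 had a higher mean in low isoleucine fasted livers. The fasted groups were apart only for Birc5 and Cdk1, and overlapped for the rest. Birc5 had 0.391 to 0.825 CPM in low isoleucine fasted livers and 0.866 to 2.9 CPM in control fasted livers. Cdk1 had 0.276 to 0.428 and 0.58 to 1.15 CPM in the same groups, and Ccna2 had 0.404 to 0.642 and 0.284 to 0.609 CPM. The part of proliferating cells in the Rad51b difference was not tested.

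The genes next to Rad51b did not share its pattern. Zfyve26, whose annotated end lies 977 bases before Rad51b, had 32.0 ± 2.04 CPM in low isoleucine fasted livers and 31.4 ± 3.90 CPM in control fasted livers (SD, n = 4 each; edgeR adjusted p = 0.968). Zfp36l1, 293063 bases beyond its other end, had 67.0 ± 8.52 and 65.8 ± 12.4 CPM in the same groups (edgeR adjusted p = 0.981).

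Slc16a1 (ENSMUSG00000032902, chromosome 3, 104638668 to 104658462, plus strand) had 95.2, 149, 122 and 98.0 CPM in low isoleucine fasted livers, against 61.3, 41.3, 65.9 and 64.8 CPM in control fasted livers. Refed livers had 43.4, 44.2, 48.7 and 36.2 CPM on low isoleucine, against 46.6, 36.2, 59.0 and 51.2 CPM on control diet. As with Rad51b, the low isoleucine fasted libraries were above the 12 others, whose groups overlapped. Means were 43.1 ± 5.17 and 48.3 ± 9.53 CPM in low isoleucine and control refed livers, and 116 ± 24.9 and 58.3 ± 11.5 CPM in low isoleucine and control fasted livers (SD, n = 4 each). The log2 fold of diet was 0.99 in fasted livers (SE 0.179, 95% interval 0.61 to 1.37), or 1.99-fold, and -0.16 in refed livers (SE 0.178, 95% interval -0.54 to 0.21). Per kilobase of merged exons Slc16a1 reached 26.2 CPM in low isoleucine fasted livers, the highest group level of the 6 genes on that scale, where Mtss1 had 6.88 and Rad51b 2.90.

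Rad51b and Slc16a1 also kept 1 order of libraries within the low isoleucine fasted group, with library 2 highest, then 3, 4 and 1. Over all 16 libraries their log2 levels had a Pearson correlation of 0.821, a value to which the group difference that chose both genes contributes. Other pairs were more strongly correlated, such as Atxn1 with Tent5c (0.850) and Rad51b with Mtss1 (-0.876). The promoters of Slc16a1 and Rad51b are shown as the 250 bases before the first start listed from RefSeq (build GRCm38.p6). They are given on the plus strand, with any match of the searched motifs in capitals. Shared control of the 2 genes was not tested.

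Slc16a1 promoter, chr3:104638414-104638663: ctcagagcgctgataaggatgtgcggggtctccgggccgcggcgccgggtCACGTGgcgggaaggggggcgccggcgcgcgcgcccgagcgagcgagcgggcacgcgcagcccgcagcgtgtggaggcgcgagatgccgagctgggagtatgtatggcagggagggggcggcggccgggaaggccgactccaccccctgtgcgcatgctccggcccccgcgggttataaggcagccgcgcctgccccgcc

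Rad51b promoter, chr12:79297032-79297281: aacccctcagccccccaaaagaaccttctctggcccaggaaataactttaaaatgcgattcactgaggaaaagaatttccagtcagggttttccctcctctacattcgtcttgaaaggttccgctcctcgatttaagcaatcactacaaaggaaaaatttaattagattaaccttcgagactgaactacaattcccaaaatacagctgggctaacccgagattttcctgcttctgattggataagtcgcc

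The 6 motifs, searched on both strands, were the E-box CACGTG, the nuclear receptor core site AGGTCA and the PPAR response element, in which that site is repeated after 1 base, the cyclic AMP response element TGACGTCA and its core TGACG, and the amino acid response element TGATGNAAT. The short sites are contained in their longer forms. The Slc16a1 window held 1 E-box, at -200 from the start, and none of the others; 6.05% of 27025 such windows held an E-box. The Rad51b window and that of Map2k6 held no match to any of the 6; these were the first listed of 2 windows for Rad51b and of 3 for Map2k6, and the others were not searched. The shares of windows with a match were 13.8% for the nuclear receptor core site, 0.037% for the PPAR response element, 1.62% for the cyclic AMP response element, 17.9% for its core and 0.825% for the amino acid response element. Of the 6 genes 4 had a window, and only those of Slc16a1, Rad51b and Map2k6 were searched.

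Atxn1 (ENSMUSG00000046876, chromosome 13, 45549755 to 45965008, minus strand) had its diet difference in refed livers. It had 9.69, 7.59, 9.54 and 8.87 CPM in low isoleucine refed livers, against 13.4, 20.9, 28.1 and 15.4 CPM in control refed livers. Fasted livers had 19.2, 21, 16.4 and 16.3 CPM on low isoleucine, against 15.9, 16.1, 19.8 and 14.1 CPM on control diet. The 4 low isoleucine refed libraries lay below the 12 others, which overlapped between groups, and control refed library 3 was the highest of all. Means were 8.92 ± 0.956 and 19.5 ± 6.58 CPM in low isoleucine and control refed livers, and 18.2 ± 2.30 and 16.4 ± 2.39 CPM in low isoleucine and control fasted livers (SD, n = 4 each). The log2 fold of diet was -1.12 in refed livers (SE 0.191, 95% interval -1.53 to -0.72) and 0.15 in fasted livers (SE 0.187, 95% interval -0.25 to 0.54). Without control refed library 3 the refed value was -0.89. Exons of Atxn1 overlap those of Gmpr, which lies on the opposite strand and had 0.214 to 0.603 CPM in the 16 libraries; the libraries were stranded, but the labels used here do not say whether the counting used strand.

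Tent5c (ENSMUSG00000044468, chromosome 3, 100451628 to 100489324, minus strand) was low in low isoleucine refed livers, with 2.38, 1.89, 2.45 and 2.52 CPM, against 4.50, 4.33, 11.7 and 8.46 CPM in control refed livers. In fasted livers it had 11.1, 8.05, 7.68 and 8.65 CPM on low isoleucine, against 5.44, 9.04, 9.12 and 9.24 CPM on control diet. Every low isoleucine refed library lay below all others, and the control refed libraries were the most scattered of the 4 groups. Means were 2.31 ± 0.287 and 7.26 ± 3.54 CPM in low isoleucine and control refed livers, and 8.88 ± 1.55 and 8.21 ± 1.85 CPM in low isoleucine and control fasted livers (SD, n = 4 each). The log2 fold of diet was -1.65 in refed livers (SE 0.284, 95% interval -2.25 to -1.05), or 0.319-fold, and 0.11 in fasted livers (SE 0.268, 95% interval -0.45 to 0.68). The refed value was -1.32 without control refed library 3. B and plasma cell markers, whose cells express Tent5c, summed to 6.60 to 8.77 CPM in low isoleucine refed livers and 5.71 to 41.8 CPM in control refed livers. The highest sum was in control refed library 4, without which the refed log2 fold of Tent5c was -1.58, and the lowest was in library 3, which had the highest Tent5c. Of these markers only Jchain had its refed groups apart, with 0.15 to 0.382 CPM on low isoleucine and 0.519 to 3.23 CPM on control diet. The part of these cells in the Tent5c difference was not tested.

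**Figure D1:**
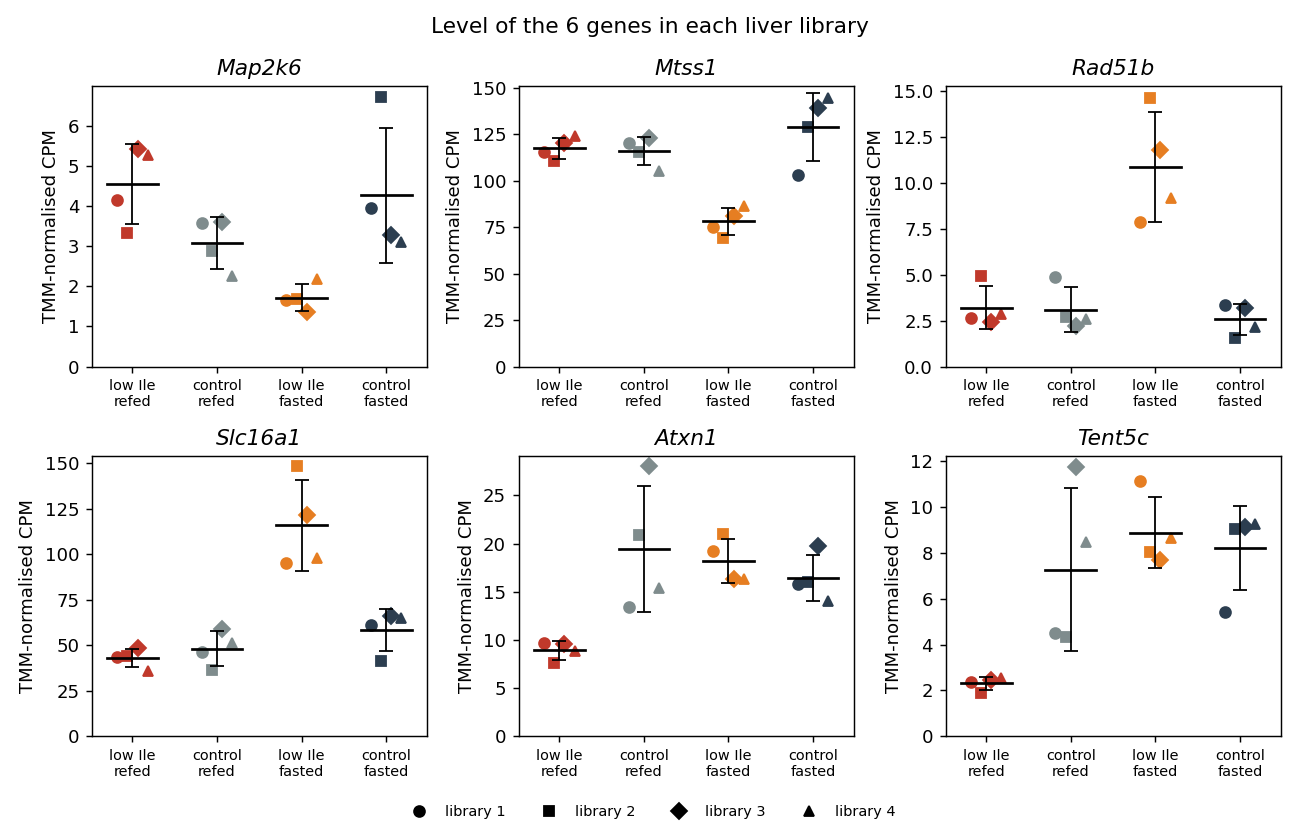
TMM-normalised CPM of the 6 genes in each liver library (points, shaped by library), with the group mean (line) and SD (bar), in low isoleucine refed, control refed, low isoleucine fasted and control fasted livers. The low isoleucine fasted libraries stand apart for Map2k6, Mtss1, Rad51b and Slc16a1, and the low isoleucine refed libraries stand apart for Atxn1 and Tent5c.

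In fasted livers 4 of the 6 genes had diet groups that did not overlap, where 8.07% of all tested genes did, and in refed livers 2 of the 6 did, where 4.44% of all tested genes did. These contrasts chose the genes, so nothing is read from the counts. The log2 diet difference in refed livers minus that in fasted livers was 1.88 for Map2k6 (SE 0.363), 0.74 for Mtss1 (SE 0.154), -2.03 for Rad51b (SE 0.434), -1.15 for Slc16a1 (SE 0.252), -1.27 for Atxn1 (SE 0.267) and -1.76 for Tent5c (SE 0.389). Its sign was positive for the 2 genes that were lower on low isoleucine in fasted livers and negative for the other 4. By rank of this difference's p among the 14920 genes the 6 stood at 3, 6, 8, 10, 12 and 13, in the order Map2k6, Mtss1, Atxn1, Rad51b, Slc16a1 and Tent5c. Just outside came Gm32540 at rank 14 (difference -1.64) and Tuba1b at rank 15 (difference -0.92). Ranks 1 and 2 were Gm6741 and Ciart, and Tfrc, Atad2 and Bhmt were among the genes ranked between the members. For the difference itself edgeR called 0 genes at an adjusted p under 0.05 (0%), with 928 at an unadjusted p under 0.05, while limma-voom called 0 and DESeq2 called 36. In size, 505 of the 12173 tested genes with a mean of at least 1 CPM had a difference at least as large as that of Mtss1.

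**Figure D2:**
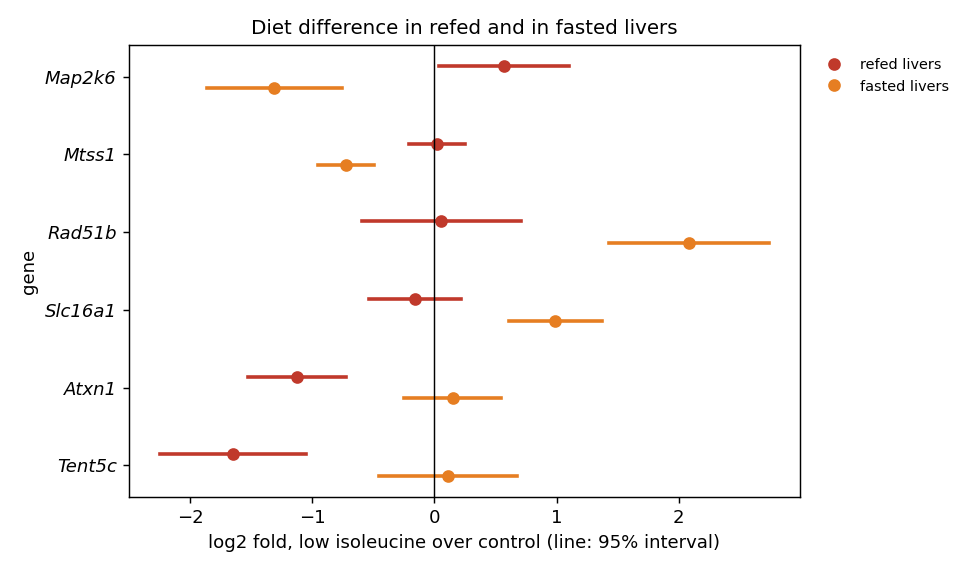
Fitted log2 fold of low isoleucine over control in refed and in fasted livers, with 95% intervals, for each gene. The value larger in absolute size is the fasted one for Map2k6, Mtss1, Rad51b and Slc16a1 and the refed one for Atxn1 and Tent5c. The 2 values have opposite signs for every gene but Rad51b. Only for Map2k6 do the 2 intervals lie on opposite sides of no difference.

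Because diet and feeding state were crossed, the same libraries can be read as the feeding difference on each diet. The gap between its values on the 2 diets is the gap that chose the genes, so they are given without a test. On the low isoleucine diet the refed and the fasted groups did not overlap for all 6 genes, where 24.6% of tested genes did not. On control diet the groups overlapped for all 6, where 19.1% of tested genes did not overlap. The log2 fold of refed over fasted on low isoleucine was 1.40 for Map2k6 and 0.59 for Mtss1, against -0.48 and -0.15 on control diet for the same genes. For Rad51b it was -1.76 on low isoleucine and 0.27 on control diet, and for Slc16a1 -1.43 on low isoleucine and -0.27 on control diet. Atxn1 had -1.03 on low isoleucine and 0.24 on control diet, and Tent5c had -1.94 on low isoleucine and -0.18 on control diet.

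**Figure D3:**
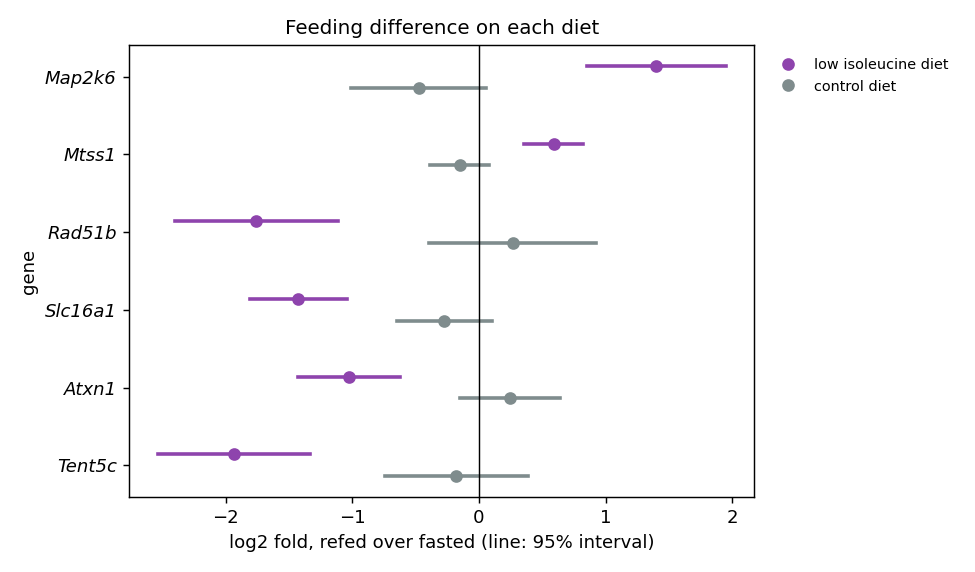
Fitted log2 fold of refed over fasted on the low isoleucine diet and on the control diet, with 95% intervals, for each gene. The values on the low isoleucine diet range from -1.94 for Tent5c to 1.40 for Map2k6, and those on the control diet from -0.48 for Map2k6 to 0.27 for Rad51b.

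The feeding difference averaged over both diets did not enter the choice of genes, although it shares each gene's estimated spread, and it was tested with edgeR's quasi-likelihood test. At an adjusted p under 0.05, 5 of the 6 genes passed, 1 higher and 4 lower in refed livers, where 32.9% of all tested genes passed, 16.4% higher and 16.5% lower. Tent5c fell after refeeding by 1.06 on the log2 scale (SE 0.195, adjusted p = 0.000525), and Slc16a1 fell by 0.85 (SE 0.127, adjusted p = 7.68e-05). Rad51b fell by 0.74 (SE 0.217, adjusted p = 0.0136) and Atxn1 fell by 0.39 (SE 0.133, adjusted p = 0.0309). Mtss1 rose by 0.22 (SE 0.0770, adjusted p = 0.0377). Map2k6 had a value of 0.46 (SE 0.181, adjusted p = 0.0592). On control diet alone the sign was opposite to the average for Rad51b (0.27), Atxn1 (0.24), Mtss1 (-0.15) and Map2k6 (-0.48). It was the same for Slc16a1 (-0.27) and Tent5c (-0.18), and the control diet groups overlapped for all 6 genes. The averages thus rest mainly on the low isoleucine diet. The calls of Rad51b, Slc16a1 and Tent5c held with every library left out in turn. That of Atxn1 was lost in 6 of the 16 such fits and that of Mtss1 in 10.

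For each gene the 3 tested genes with the most similar log2 level over the 16 libraries were found among 11176 genes; the libraries share their group differences, so these correlations are descriptions. Map2k6 was most like Ciart, a circadian transcriptional repressor (Pearson r = 0.869), then Zfyve21 (0.833) and Ccdc62 (0.827). Mtss1 was most like Map2k1, the kinase MEK1 (0.850), then Masp2, a complement protease (0.830), and Cryzl2 (0.821). Rad51b was most like Ehhadh, a peroxisomal enzyme of fatty acid oxidation (0.902), then Nt5c2, a nucleotidase (0.890), and Dnajc12, a co-chaperone (0.889). Slc16a1 was most like Amigo1 (0.941), Nedd4l, a ubiquitin ligase (0.936), and Golga5, a Golgi protein (0.927). Atxn1 was most like Gtf2h1, a subunit of the transcription factor TFIIH (0.908), then Upf2, a factor of nonsense-mediated decay (0.868), and Tent5c itself (0.850). Tent5c was most like Casp2, a caspase (0.910), Abhd13 (0.891) and Pgm3, an enzyme of hexosamine synthesis (0.890).

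**Figure D4:**
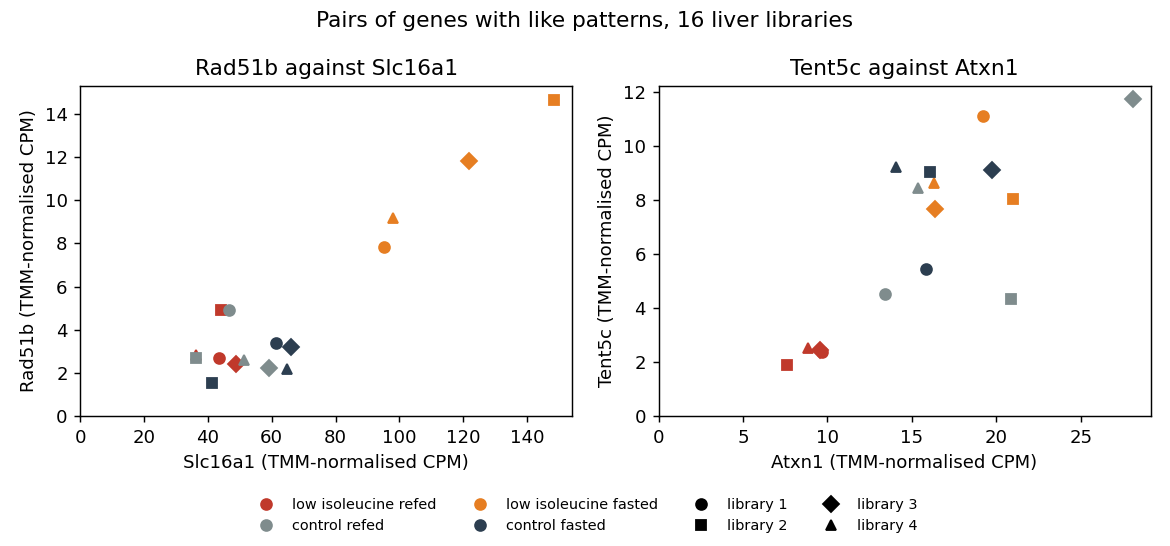
Rad51b against Slc16a1 (left) and Tent5c against Atxn1 (right) in TMM-normalised CPM, 1 point per library, coloured by group and shaped by library. The 4 low isoleucine fasted libraries stand at the upper right of the left plot, and the 4 low isoleucine refed libraries at the lower left of the right plot.

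Relatives and partners of 5 of the 6 genes were counted in lists chosen with earlier results of these data known. Across all tested genes edgeR called 0.771% for diet in fasted livers, 0.328% higher and 0.442% lower, and 0.174% in refed livers, 0.0603% higher and 0.114% lower. In the monocarboxylate transporter, lactate and ketone list, 2 of 23 tested genes rose in fasted livers on low isoleucine and 0 fell; 0 of 23 passed in refed livers (1 with an unadjusted p under 0.05; 0 by limma-voom and by DESeq2). Slc16a7, which encodes the transporter MCT2 and is the closest relative of Slc16a1 here, had 155, 137, 145 and 138 CPM in low isoleucine fasted livers, against 85.4, 94.9, 91.5 and 73.0 CPM in control fasted livers. The fasted groups were apart, with a log2 fold of 0.74 (SE 0.106, edgeR adjusted p = 0.00975). In refed livers Slc16a7 had 81.9 ± 4.65 CPM on low isoleucine and 75.1 ± 9.10 CPM on control diet (SD, n = 4 each; log2 fold 0.12, edgeR adjusted p = 0.748), and the difference between feeding states was -0.61 (edgeR adjusted p = 0.356). Mpc2, a subunit of the mitochondrial pyruvate carrier, had 171, 171, 150 and 171 CPM in low isoleucine fasted livers, against 120, 115, 126 and 108 CPM in control fasted livers (log2 fold 0.50, SE 0.0918, edgeR adjusted p = 0.0224). All low isoleucine fasted libraries of Mpc2 were above the control ones, but the call was lost without low isoleucine fasted library 2 or 4 or without control fasted library 2 or 4.

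Among PPAR-alpha target genes 2 of 19 rose in fasted livers on low isoleucine, 0 fell, and the list's median log2 fold was 0.47, against 0.01 over all tested genes. In refed livers 0 of 19 passed (5 at an unadjusted p under 0.05; 2 by DESeq2, 0 by limma-voom), with a median of -0.09. Ehhadh had 3446, 7148, 5610 and 4824 CPM in low isoleucine fasted livers, against 2322, 1194, 1932 and 2470 CPM in control fasted livers (log2 fold 1.41, SE 0.263, edgeR adjusted p = 0.0235). Its order of libraries in the low isoleucine fasted group was that of Rad51b and Slc16a1. Cyp4a14, a fatty acid omega-hydroxylase, had a log2 fold of 0.79 (SE 0.151, edgeR adjusted p = 0.0252), and its fasted groups were apart too. Both calls were lost in the same 6 fits, without low isoleucine fasted library 2, 3 or 4 or control fasted library 2, 3 or 4. In refed livers Cyp4a14 had a log2 fold of 0.51 (SE 0.150, 95% interval 0.19 to 0.82, edgeR adjusted p = 0.247). Its difference between feeding states was -0.28 (edgeR adjusted p = 0.933). Averaged over diets, 16 of the 19 PPAR-alpha target genes fell after refeeding and 0 rose, where 16.5% of all tested genes fell and 16.4% rose.

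In the list of poly(A) polymerases and deadenylases around Tent5c, 1 of 24 genes fell in fasted livers on low isoleucine. It was Btg2, an activator of deadenylation, with 7.89, 7.74, 7.35 and 7.03 CPM in low isoleucine fasted livers, against 14.5, 10.4, 34.2 and 20.9 CPM in control fasted livers (log2 fold -1.41, SE 0.310, edgeR adjusted p = 0.0447). The groups did not overlap, but control fasted library 3 was far above the rest and the call was lost in 11 of the 16 fits that leave out a library. In refed livers 0 of 24 passed (2 at an unadjusted p under 0.05; 1 by DESeq2, 0 by limma-voom). Tent5a, the closest relative of Tent5c here, had 9.89, 4.65, 9.66 and 7.00 CPM in low isoleucine refed livers, against 11.4, 11.6, 30.3 and 14.8 CPM in control refed livers. These groups were apart as well, with library 3 of the control refed group again the highest, but the log2 fold of -1.12 did not pass (SE 0.285, edgeR adjusted p = 0.146). Unlike Tent5c, Tent5a did not pass for feeding averaged over diets (log2 fold 0.32, SE 0.200, edgeR adjusted p = 0.243).

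**Figure D5:**
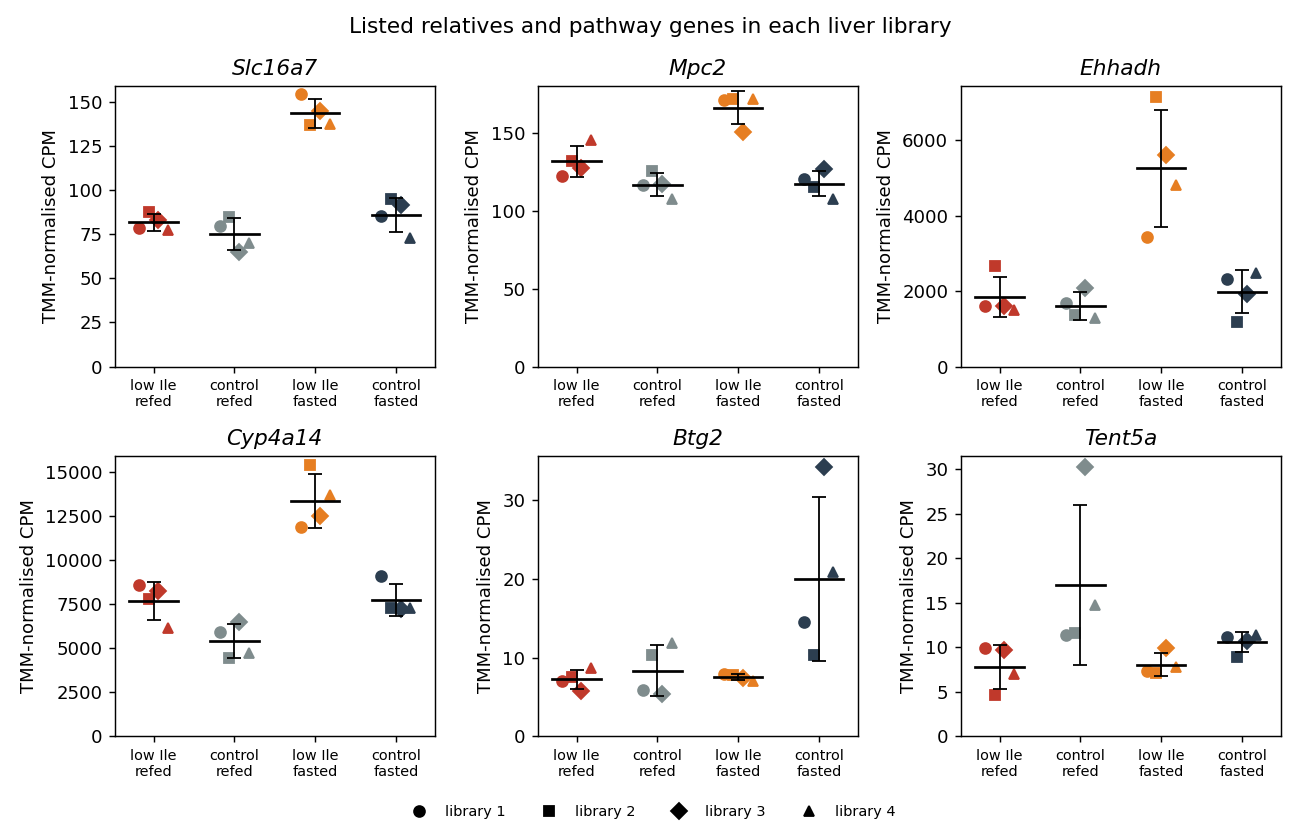
TMM-normalised CPM of Slc16a7, Mpc2, Ehhadh, Cyp4a14, Btg2 and Tent5a in each library (points), with group mean (line) and SD (bar), in low isoleucine refed, control refed, low isoleucine fasted and control fasted livers. The first 4 genes are highest in low isoleucine fasted livers, Btg2 is highest in control fasted livers, and Tent5a is highest in control refed livers, library 3 above all.

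The lists around Map2k6, Mtss1 and Atxn1 held no gene that passed for diet by edgeR or limma-voom. In the p38 MAP kinase cascade around Map2k6, 0 of 34 passed in fasted livers (6 at an unadjusted p under 0.05, 1 with DESeq2) and 0 in refed livers (3 at an unadjusted p under 0.05, 1 by DESeq2). Map2k3, the other main kinase of p38, had 31.9 ± 4.07 CPM in low isoleucine fasted livers and 41.8 ± 8.61 CPM in control fasted livers (SD, n = 4 each; log2 fold -0.39, edgeR adjusted p = 0.324). The most abundant member, the p38-alpha kinase gene Mapk14, had 98.0 ± 5.26 and 92.2 ± 4.38 CPM in those groups (edgeR adjusted p = 0.844), and Mknk2, a kinase downstream of p38, had 79.0 ± 23.4 and 113 ± 28.9 CPM (edgeR adjusted p = 0.575). Among 20 genes of I-BAR proteins and actin partners around Mtss1, 0 passed in either state (0 in each at an unadjusted p under 0.05, 0 by DESeq2). Mtss2, named Mtss1l in the files, had 2.71 ± 0.956 CPM in low isoleucine fasted livers and 2.60 ± 0.117 CPM in control fasted livers (SD, n = 4 each; edgeR adjusted p = 0.963).

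Around Atxn1, 0 of 14 genes of the ataxin-1 and Capicua complex passed in fasted livers (1 at an unadjusted p under 0.05, 0 with DESeq2) and 0 in refed livers (0 at an unadjusted p under 0.05, 0 by DESeq2). Atxn1l, its closest relative, had 16.1 ± 2.56 CPM in low isoleucine refed livers and 18.7 ± 3.48 CPM in control refed livers (SD, n = 4 each; log2 fold -0.22, edgeR adjusted p = 0.651), while Usp7 and Ncor1, the most abundant, had 0.02 and -0.08 (edgeR adjusted p = 0.976 and 0.871). Of 10 Capicua target genes 0 passed in fasted livers (0 at an unadjusted p under 0.05, 0 with DESeq2) and 0 in refed livers (1 at an unadjusted p under 0.05, 1 by DESeq2). The most abundant, Ccnd1, which encodes cyclin D1, had 17.5 ± 4.02 CPM in low isoleucine refed livers and 38.5 ± 14.97 CPM in control refed livers (SD, n = 4 each; log2 fold -1.14, edgeR adjusted p = 0.138), and Dusp6, a MAP kinase phosphatase, had a log2 fold of 0.46 (edgeR adjusted p = 0.565).

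Genes known to follow the feeding state were read as a check of the feeding labels, in a list also chosen with earlier results of these data known. All 11 of 11 changed with feeding averaged over diets, 5 higher and 6 lower in refed livers, where 32.9% of all tested genes changed. Pck1 and G6pc, enzymes of gluconeogenesis, fell after refeeding by 1.92 (SE 0.253) and 1.43 (SE 0.311) on the log2 scale (edgeR adjusted p = 3.26e-05 and 0.00237). For diet 0 of the 11 passed in fasted livers (1 at an unadjusted p under 0.05, 1 by DESeq2, 0 by limma-voom) and 0 in refed livers (3 at an unadjusted p under 0.05, 1 by DESeq2, 0 by limma-voom).

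In the authors' deposited tables, where positive values are also higher on low isoleucine, the log2 folds in fasted livers were -1.32 for Map2k6, -0.73 for Mtss1, 2.07 for Rad51b and 0.98 for Slc16a1. In refed livers the authors' deposited table gives -1.13 for Atxn1 and -1.65 for Tent5c. In the authors' fasted comparison Slc16a7 had a log2 fold of 0.73 (authors' F test, adjusted p = 0.00887). Ehhadh had 1.40 in the same comparison and did not pass (authors' F test, adjusted p = 0.108).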

How the data were processed

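Per the labels' protocols, stranded libraries of polyadenylated RNA were made and the lanes of each sample were merged. The authors deposited a table of RSEM expected counts, of which 10.2% were not whole. Per the file headers, their diet tables hold p-values, an F score and log2 values (fold change and mean CPM). R 3.5.3, limma and edgeR appear in the submitters' processing notes. Aligner, genome build, annotation and strand setting: not given in the sources used here, so positions belong to GENCODE M21 alone.

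After rounding, edgeR 4.0.16 was run under R 4.3.3 (filterByExpr with a minimum count of 10 and a minimum total of 15, TMM, robust quasi-likelihood F test, 1 mean per group over 16 libraries). The p-values were adjusted by Benjamini-Hochberg over all 14920 tested genes, with a threshold of 0.05. The standard error is the absolute log2 fold divided by the square root of F. Likeness used log2 CPM with a prior count of 2, among genes averaging 1 CPM or more without provisional names. Named were the 6 genes, list members that passed for diet or else the 2 most abundant, the closest relative of each gene, the 3 most similar genes, rank neighbours and the neighbours of Rad51b. Of 284 list symbols 284 were found. The results of 1 list and of some named genes are not reported here. The genes and lists were chosen with earlier results of these data known. Alternatives were other scalings, no filter, DESeq2 1.42.0, limma-voom (limma 3.58.1), only the compared groups, a replicate block and each library left out. The fit was also run on counts simulated with its own estimated spread, and no result of that run is used here.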

Additional observations from a re-analysis of the deposited data

Results flagged for a closer look

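In 6 of 64 groups of 4 libraries, 1 library lay far from the other 3 by Dixon's 95% criterion; chance gives about 1 in 20. Rad51b had 4.929 CPM in library 2 of the low isoleucine refed group and 4.907 CPM in library 1 of the control refed group, both above their groups. Tent5c had 5.437 CPM in control fasted library 1, below the other control fasted libraries. Mpc2 had 150.2 CPM in low isoleucine fasted library 3, below its group, and Ehhadh had 2654 CPM in low isoleucine refed library 2, above its group, the same library in which Rad51b was high. Cyp4a14 had 9111 CPM in control fasted library 1, above its group.

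For Map2k6 every low isoleucine refed library lay above the mean of the control refed group and every low isoleucine fasted library lay below the mean of the control fasted group. The log2 diet differences in refed and fasted livers were 1.875 apart. The gene was chosen on this difference, so no p is given for it.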

How the results depend on the processing

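The diet differences of the 6 genes and the differences between feeding states moved by less than their standard error under every scaling, filter and test tried that gave a value. With 1 library at a time left out, the refed minus fasted diet difference ranged from 1.57 to 2.01 for Map2k6, 0.68 to 0.84 for Mtss1, -2.31 to -1.72 for Rad51b, -1.28 to -1.01 for Slc16a1, -1.41 to -1.04 for Atxn1 and -1.96 to -1.44 for Tent5c. For feeding averaged over diets, Map2k6 passed with upper-quartile scaling (0.48, adjusted p = 0.0491) and by DESeq2 (0.47, adjusted p = 0.0407), and Mtss1 failed with no filter (0.22, adjusted p = 0.0837). Leaving out 1 library gave 0.40 to 0.62 for Map2k6, which passed without low isoleucine refed library 2, control refed library 4, low isoleucine fasted library 4 or control fasted library 2, and 0.17 to 0.25 for Mtss1 and -0.51 to -0.32 for Atxn1. The Mtss1 call was lost without low isoleucine refed library 1, 3 or 4, control refed library 1, 2 or 3, or library 1 or 2 of either fasted group; the Atxn1 call was lost without low isoleucine refed library 2 or 4, control refed library 1 or 4, low isoleucine fasted library 2 or control fasted library 3. Of all tested genes, diet called 115 in fasted livers, 365 by DESeq2, 193 with only the compared groups and 6 to 222 with 1 library left out, lowest without control fasted library 4 (6) or low isoleucine fasted library 2 (7) and highest without control refed library 4. It was also over 1.5 times lower without low isoleucine refed library 1 (71), low isoleucine fasted library 3 (14) or 4 (24) or control fasted library 1 (52), 2 (25) or 3 (40), and higher without low isoleucine fasted library 1 (203). Diet called 26 in refed livers, 172 by DESeq2, 3 with only the compared groups and 3 to 89 with 1 library left out, lowest without low isoleucine refed library 1, low without low isoleucine refed library 2 (6) or 4 (9) or control refed library 3 (17), and highest without control refed library 4. The difference between feeding states called 0, 36 by DESeq2 and 0 to 1 with 1 library left out. PPAR-alpha target genes called for diet in fasted livers numbered 6 by DESeq2 and 0 to 4 with 1 library left out. Between libraries with the same mark (RL, R, L or N), 8 of 24 correlations of deviations exceeded 0.1, over a range of -0.325 to 0.323. Libraries with different marks were not compared, so this cannot tell whether the marks pair the libraries. With a replicate block by mark, diet called 77 genes in fasted and 25 in refed livers, feeding called 4714, and the calls of Ehhadh (adjusted p = 0.0595) and Btg2 (adjusted p = 0.106) were lost. The Btg2 call was also lost with no filter (adjusted p = 0.112), by limma-voom (adjusted p = 0.0846) and with only the compared groups (adjusted p = 0.0639), while the call of Slc16a7 held in every alternative. Spearman in place of Pearson correlation kept 0 to 2 of the 3 most similar genes of each. Map2k6 and Rad51b have the fewest counts, which limits what their libraries can show.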
